A study of Mus musculus with 4 samples.

Results

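The cytosolic ribosome is built from ribosomal RNA and a set of ribosomal proteins that each cell needs in near-equal numbers, those of the small subunit (Rps), those of the large subunit (Rpl) and the P proteins of the stalk (Rplp), which recruit elongation factors. The genes were taken by symbol, as Rpl, Rps or Rplp followed by a number and at most the suffix a, l, x or al, with no pseudogene suffix. The rule found 80 of the 46320 gene identifiers in the RNA tables, 31 of the small subunit, 46 of the large subunit and 3 of the stalk. By their chromosomes, Rps4x, Rpl10, Rpl36a and Rpl39 are X-linked and the other 76 are autosomal.

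RNA-seq was made from the prefrontal cortex of female F1 mice at 14 weeks of age, with C57BL6J and Spretus (Mus spretus) as parents, in 2 libraries, and MethylC-seq, which reads the methylation of single cytosines after bisulfite treatment, gave regions whose level differs between the parental alleles. In all samples the maternal allele of Xist was mutated, the gene whose noncoding RNA coats and silences its own X chromosome, and no mice without it were compared. Reading the strain label as mother then father makes Spretus the paternal and C57 the maternal allele, and 98.7% ± 0.210 of Xist reads (SD, n = 2) were Spretus. With 1 direction of the cross, strain cannot be told apart from parent of origin. Per the labels' protocols tissue was pooled from 2 individuals of separate litters, and no label ties a library to its own animals. Each p-value therefore rests on these libraries alone, with a spread estimated in part from other genes, and that spread may be technical.

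The allele-assigned reads summed to 4768237 in library 1 and 1291903 in library 2. The pan-neuronal markers had median FPKM (by definition fragments per kilobase of transcript, scaled to library size) of 455 and 107 in libraries 1 and 2. The excitatory neuron markers had 153 and 22.1, and the oligodendrocyte markers 116 and 12.6. Markers of choroid plexus and cerebellar granule cells had medians under 1 in both libraries, and those of the olfactory bulb had 1.63 and 0.106. FPKM was a median of 5.78 times higher in library 1 over the 13458 genes with a mean FPKM of at least 1. How these values were scaled is not stated, so FPKM levels are compared between genes within a library. In tissue samples, fewer cells of a type and less RNA per cell cannot be told apart.

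Ribosomal protein mRNAs are known for a 5′ terminal oligopyrimidine tract, a C followed by a run of C and T bases at the start of the transcript, through which growth signals set their translation. RefSeq promoters of build GRCm38.p6 were found for 59 of the 80 genes. At an annotated start, 13 of the 59 (22.0%) had a C followed by at least 4 pyrimidines, read on the gene's own strand, against 3.01% of the 27025 genes in the promoter table (813 genes). A start annotated a few bases off the true one would miss the tract, so a missing match says only that these letters are not there. The windows below run from 15 bases before the annotated start to 15 bases from it. The first 6 hold the tract, which stands in capitals, and were chosen for their allelic values or for a long tract, and the last 4 are the X-linked genes, of which 0 hold it.
Rpl35: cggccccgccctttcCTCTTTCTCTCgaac
Rps10: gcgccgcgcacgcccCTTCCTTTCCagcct
Rps15a: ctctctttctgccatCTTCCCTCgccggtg
Rps6: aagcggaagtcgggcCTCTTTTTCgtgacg
Rpl15: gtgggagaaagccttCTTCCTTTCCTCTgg
Rps18: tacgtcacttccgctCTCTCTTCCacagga
Rps4x: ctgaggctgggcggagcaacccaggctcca
Rpl10: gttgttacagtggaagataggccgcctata
Rpl36a: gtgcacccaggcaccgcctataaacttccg
Rpl39: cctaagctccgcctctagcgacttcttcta

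Nearly all of the genes were expressed at a high level. A mean FPKM of at least 1 was reached by 77 of the 80, with a median of 138 FPKM in library 1 and 23.0 FPKM in library 2, against medians of 10.6 and 1.77 over all genes past that minimum. In library 1, 45 of the 80 ranked among the 500 highest genes and 67 among the 1000 highest. In library 2 these counts were 39 and 60. The small subunit genes had a median FPKM of 147 and 24.0 and the large subunit genes of 134 and 23.0 in libraries 1 and 2. The order of the genes was close in both libraries, with a Pearson correlation of log2 FPKM of 0.966 and a Spearman correlation of 0.947 over 77 genes, which share their libraries and are not replicates.

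The highest mean FPKM was that of the stalk gene Rplp1, at 548 in library 1 and 68.9 in library 2. Next stood Rps27, at 464 and 75.3, Rpl41, which encodes a very short basic protein, at 455 and 71.6, Rpl31 at 429 and 77.0 and Rpl13a at 435 and 68.3. The order of these 5 differs between the libraries, with Rpl31 highest in library 2. Rplp0, the stalk protein that carries the P1 and P2 proteins, stood much lower than Rplp1, at 60.6 and 7.08 FPKM. Among genes of the ordinary ribosome the lowest was Rpl27, at 40.7 and 5.91.

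The lowest levels were those of copies of other ribosomal protein genes. Rpl10l, a testis-expressed copy of Rpl10, and Rpl39l, a testis-enriched copy of Rpl39, were listed at 0 FPKM with 0 allele-assigned reads in each library. Rpl3l, the striated muscle form of Rpl3, stood at 0.559 FPKM in library 1 and 0.0677 in library 2, with 2 and 1 reads, all Spretus. Rps4l stood at 5.16 and 0.475 FPKM and Rps27l, a p53-induced copy of Rps27, at 9.90 and 0.874. Rpl36al, the autosomal copy of Rpl36a, was the exception among the copies, at 41.5 and 11.4 FPKM beside 100 and 12.3 for Rpl36a. It ranked 1160 in library 2, close to the 1075 of Rpl36a, but 1898 against 685 in library 1.

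**Figure D1:**
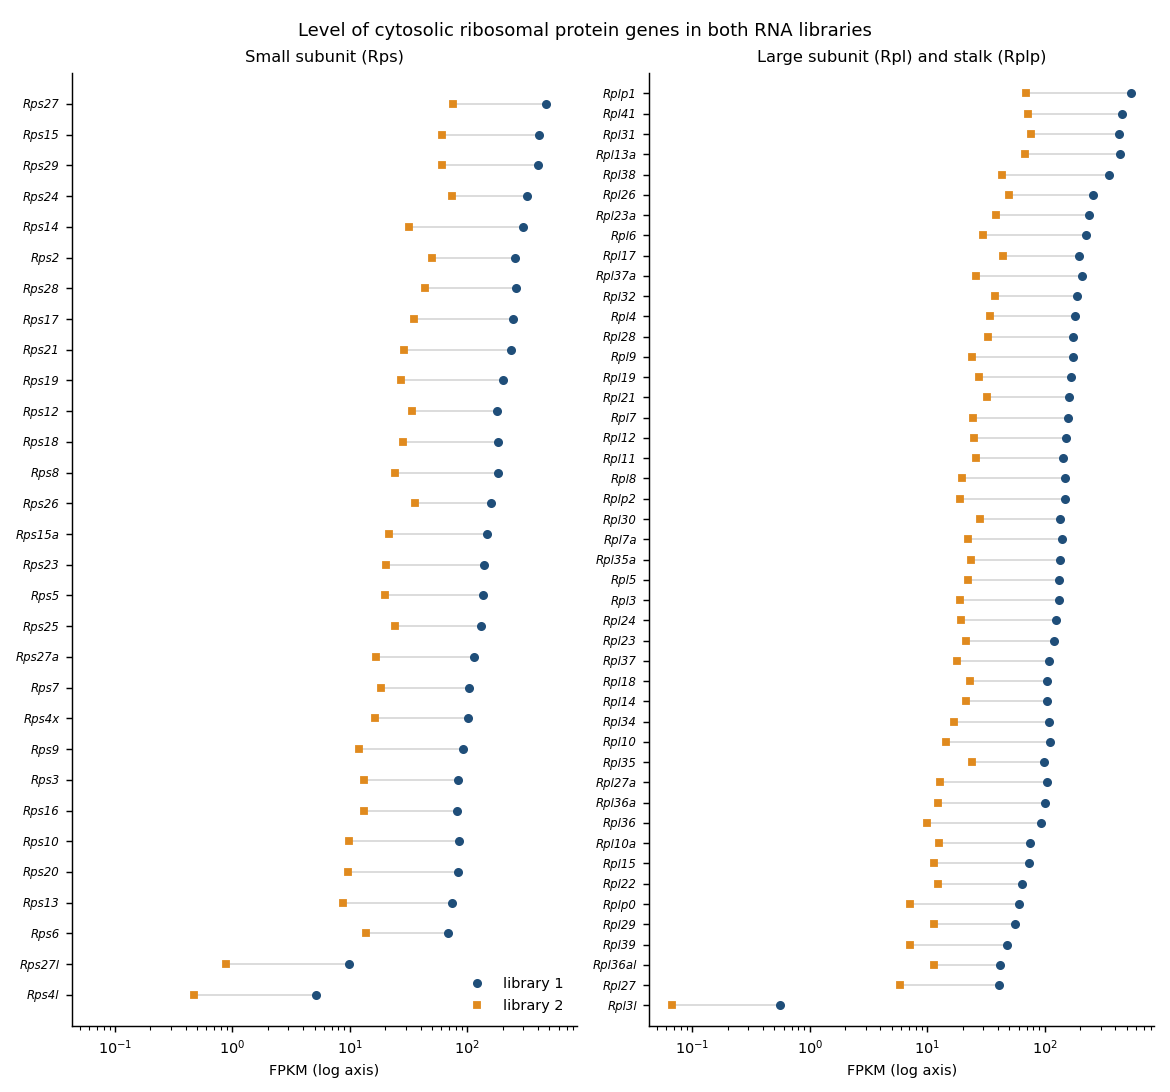
FPKM of 76 ribosomal protein genes on a log axis in library 1 (circles) and library 2 (squares), ordered by mean FPKM, with small subunit genes on the left and large subunit and stalk genes on the right. Most lie between 40 and 550 FPKM in library 1, Rps27l, Rps4l and Rpl3l lie apart at the bottom, and Rpl10l and Rpl39l, at 0, and 2 further genes are not drawn.

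The ribosomal protein genes held a slightly larger place in library 1 by FPKM and a smaller one by allele-assigned reads. The ratio of FPKM in library 1 over library 2 had a median of 6.36 over the 77 genes, 1.10 times that of all genes, and 53 of the 77 were above the all-gene median, as were 48.8% of all genes. Respiratory chain genes stood at 1.09 times the all-gene median, and genes of similar kind or name outside the symbol rule at 1.28. Ribosome assembly, translation factor and mitochondrial ribosomal protein genes stood at 0.998, 0.895 and 1.01. Counted as allele-assigned reads scaled to each library's total, the median ratio of the ribosomal protein genes was 0.771, against 1.10 for all genes. Unscaled, the median read ratio was 2.82 for the ribosomal protein genes and 3.99 for all genes. It was 2.95 for translation factor genes and 3.20 for respiratory chain genes. Mitochondrial ribosomal protein genes had 3.88, ribosome assembly genes 4.13 and those of similar kind or name 4. The direction therefore depends on the measure, and no difference between the libraries was tested, since they are replicates of 1 group. The highest FPKM ratios were those of Rps27l (11.3), Rps4l (10.9) and Rpl36 (9.43), and the lowest those of Rpl36al (3.62), Rpl35 (4.12) and Rps24 (4.36). The blood markers had a median of 189 FPKM in library 1 and 12.8 in library 2, and the oligodendrocyte markers 116 and 12.6. The pan-neuronal markers had 455 and 107. These values are not scaled for the all-gene median ratio of 5.78. The part of such cell types in the library ratios was not tested.

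The 4 X-linked genes were read almost wholly from C57. Rps4x, a small subunit protein at X 102184941 to 102189394 (mm10, as for all loci here), had 0 Spretus reads against 130 from C57 in library 1, and 0 against 46 in library 2. Rpl10, a late-joining large subunit protein near the catalytic centre (X 74270812 to 74273135), had 0 against 87 in library 1, and 0 against 21 in library 2. Rpl39, a very small protein of the exit tunnel (X 37082520 to 37085402), had 0 against 43 in library 1, and 0 against 12 in library 2. A count of 0 allows a Spretus share of up to 1.70% for Rps4x, 2.78% for Rpl10 and 5.45% for Rpl39, so C57 reads were at least 58.7-fold, 36.0-fold and 18.3-fold higher, taking 3 reads over both libraries as the floor.

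Rpl36a, a large subunit protein at X 134585654 to 134588062, was the exception, with 2 Spretus reads against 96 from C57 in library 1, and 0 against 33 in library 2. Its summed share was 1.53%, with an exact Clopper-Pearson 95% interval of 0.185 to 5.41%. The autosomal pseudogenes named after Rpl36a held 2 Spretus reads in library 1 and 1 C57 read in library 2. Whether the Spretus reads of Rpl36a came from such copies was not tested. The 4 genes together had 2 Spretus and 468 C57 reads, a share of 0.426% (0.0516 to 1.53%). As the reads have no molecular identifiers, such intervals and limits cover counting error only. Rpl39 had fewer than 20 reads in library 2. Among X-linked genes with at least 20 reads in each library, Rps4x and Rpl10 had no Spretus read and Rpl36a had, and 157 of 312 other genes apart from Xist had none (50.3%).

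By edgeR's quasi-likelihood test, Benjamini-Hochberg adjusted, each of the 4 was called toward C57, with adjusted p of 7.88e-06 for Rps4x, 1.48e-05 for Rpl10, 1.50e-05 for Rpl36a and 5.39e-05 for Rpl39. This sets them with nearly every gene of the chromosome, since 99.2% of 397 X-linked genes tested were called toward C57. Their FPKM levels, which sum both alleles, lay below the median of the ribosomal protein genes but within their range. In library 1, Rpl10 (111 FPKM), Rps4x (101), Rpl36a (100) and Rpl39 (47.5) stood under the median of 138. In library 2 the values were 14.5, 16.3, 12.3 and 7.19 FPKM in the same order, against the median of 23.0.

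The autosomal copies of these genes gave no such pattern where they could be read. Rpl36al, on chromosome 12, had 22 Spretus reads against 37 from C57 in library 1, and 14 against 14 in library 2, and was not called. Rps4l had 9 against 9 in library 1, and 1 against 0 in library 2, too few for the test. Its locus lies wholly inside that of Tmtc1. The reads and FPKM of Rps4l therefore cannot be told apart from those of Tmtc1 where strand was not used. Tmtc1 had 486 Spretus reads against 644 from C57 in library 1, and 135 against 185 in library 2. Rpl10l and Rpl39l had no reads.

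Each of the 4 X-linked genes also held a listed methylation region, higher on Spretus in all 6 cases. The list gives the level of each allele as a fraction, with no coverage, so depth is unknown. Rps4x held a region at X 102188343 to 102189192 with levels of 0.855 on Spretus and 0.00973 on C57, and a second at X 102187185 to 102187429 with 0.830 and 0.0769. Rpl10 held a region across its annotated start, at X 74269932 to 74270887, with 0.612 on Spretus and 0 on C57, and a second inside the gene at X 74271697 to 74272281 with 0.878 and 0.0129. Rpl36a held a region at X 134585713 to 134586045 with 0.652 and 0, and Rpl39 held the longest, of 1394 bp, at X 37083319 to 37084712 with 0.673 and 0.00969. The Spretus levels thus ranged from 0.612 to 0.878 and the C57 levels from 0 to 0.0769.

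The first region of each gene lay at or within 510 bases of its start. From the RefSeq start, the nearest region began 59 bases downstream for Rpl36a, 199 for Rps4x and 510 for Rpl39, and the first region of Rpl10 ran from 884 bases upstream to 71 downstream. The second regions lay farther inside, from 881 to 1465 bases downstream in Rpl10 and from 1962 to 2206 in Rps4x. Of the 453 X-linked genes with a mean FPKM of at least 1, 62.9% had a region within 2 kb and 61.1% one that was higher on Spretus. Of the 76 autosomal ribosomal protein genes, 0 had a region within 2 kb. The share was 2.75% of 13003 autosomal genes with a mean FPKM of at least 1, or 0.754% for regions higher on Spretus. The 76 include Rpl10l, Rpl39l and Rpl3l, which lie below that minimum. Whether 0 differs from so small a share was not tested. Levels outside the listed regions are not known. The 300-base promoter windows held a median of 17 CpG sites (range 13 to 20) for the X-linked genes, 21 for all 59 ribosomal protein genes with a promoter and 8 over all genes of the table. The 150 bases before the start of Rpl10 (X, 74270666 to 74270815, plus strand) lie wholly inside its first region and are shown for the cytosines that it covers, with the 9 CpG sites in capitals.
Rpl10: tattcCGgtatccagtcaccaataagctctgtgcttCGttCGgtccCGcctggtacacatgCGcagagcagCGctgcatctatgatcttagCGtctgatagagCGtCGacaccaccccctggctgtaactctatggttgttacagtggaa

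**Figure D2:**
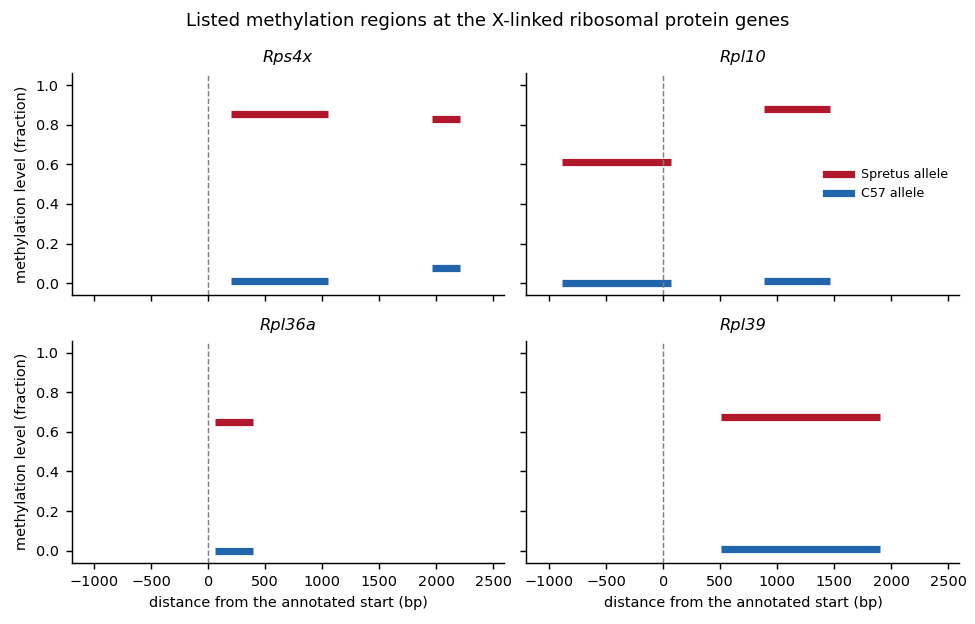
Methylation level (fraction, y axis) of the listed regions on the Spretus and the C57 allele against distance from the annotated RefSeq start in bp, for the 4 X-linked ribosomal protein genes. Each bar spans 1 region, and the 6 Spretus bars lie between 0.612 and 0.878, with the C57 bars at or below 0.0769.

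The autosomal ribosomal protein genes drew on both alleles. A share was taken for 60 of the 76, those with 20 or more allele-assigned reads in both libraries. Their median Spretus share was 48.8% (interquartile range 43.7 to 56.9%), against 48.2% (44.3 to 51.4%) for 9677 other autosomal genes. A share of at least 60% was found for 9 of the 60, against 345 of the 9677 other genes. One of at most 40% was found for 5 of the 60, against 976 of the others. Together these were 23.3% of the 60, against 13.7% of the other genes. The genes had a median of 299 reads and the others 370, and the part of depth in this difference was not tested. Summed over genes, 49.7% of reads in library 1 and 50.2% in library 2 were Spretus, against 47.9% and 48.0% for the other genes.

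Single genes departed from balance in both directions, mostly toward Spretus. At least 10 reads in each library were held by 67 of the 80 genes, 63 of them autosomal, and the 13 that were not tested include the highly expressed Rps27, Rpl41, Rps21, Rps28 and Rplp2. By edgeR's quasi-likelihood test, Benjamini-Hochberg adjusted over 11981 genes, 7 of the 63 autosomal genes were called toward Spretus, against 2.39% of 11584 autosomal genes, and 1 toward C57, against 3.04%. Together these were 12.7% of the 63, against 5.43% of all autosomal genes tested. That planned fit had allele as its only term and did not use the pairing of the alleles within a library. A fit that pairs the alleles of each library, with the library as a block, called 20 toward Spretus (background 11.1%) and 7 toward C57 (11.3%), together 42.9% of the 63 against 22.5% of all. With the alleles of a library given the same total, 4 were called toward Spretus (1.53%) and 2 toward C57 (3.52%). DESeq2 called 3 (1.05%) and 1 (1.15%). Without a filter on low counts, 10 of 74 autosomal ones were called toward Spretus (2.71%) and 3 toward C57 (3.12%), and with a minimum of 50 reads in each library 4 of 51 (1.05%) and 0 (1.54%).

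Rpl35, a large subunit protein at the exit tunnel (chromosome 2, 39001580 to 39005624), had the highest share among the 60. It had 58 Spretus reads against 20 from C57 in library 1, and 27 against 8 in library 2, so that Spretus reads were more than the C57 reads in both libraries. Its share was 75.8% ± 1.97 (SD, n = 2), with a log2 ratio of Spretus over C57 of 1.79 (SE 0.40, adjusted p = 0.0135 by edgeR). Its locus overlaps Arpc5l at an end and lies wholly inside that of Wdr38, so reads there cannot be told apart where strand was not used in counting. Arpc5l itself had 60 Spretus reads against 59 from C57 in library 1, and 7 against 9 in library 2, and Wdr38 had 4 against 0, and 0 against 3.

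Rpl11, which with Rpl5 and 5S ribosomal RNA binds Mdm2 when ribosome assembly is disturbed, had 114 Spretus reads against 51 from C57 in library 1, and 22 against 9 in library 2. Its share was 70.0% ± 1.33 (SD, n = 2; log2 ratio 1.30, SE 0.28, adjusted p = 0.0111 by edgeR). Its partner Rpl5 stood near balance, with 126 Spretus reads against 148 from C57 in library 1, and 48 against 53 in library 2. Rps10, whose human counterpart is mutated in Diamond-Blackfan anaemia, had 55 Spretus reads against 20 from C57 in library 1, and 8 against 4 in library 2 (log2 ratio 1.49, SE 0.35, adjusted p = 0.0201 by edgeR), so its second library adds little depth.

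Rps16, of the small subunit head, had 99 Spretus reads against 44 from C57 in library 1, and 36 against 18 in library 2, giving 67.9% ± 1.81 from Spretus (SD, n = 2). Its log2 ratio was 1.26 (SE 0.31, adjusted p = 0.0236 by edgeR), with more Spretus than C57 reads in both libraries. Rpl10a had a share of 68.6% ± 6.40 and Rpl18 of 65.5% ± 3.34 (SD, n = 2), with log2 ratios of 1.19 and 1.02 and adjusted p of 0.00928 and 0.0244 by edgeR. Both have pseudogenes with allele-assigned reads, taken up below. The calls of Rps10, Rps16 and Rpl18 were lost with DESeq2 (adjusted p = 0.456, 0.122 and 0.198) and in edgeR with a shared total (adjusted p = 0.0569, 0.0549 and 0.075), and that of Rpl11 with DESeq2 (adjusted p = 0.107). The log2 ratios stayed near those above, at 1.42, 1.24, 1.05 and 1.31 for Rps10, Rps16, Rpl18 and Rpl11 with DESeq2 and at 1.34, 1.12 and 0.89 for Rps10, Rps16 and Rpl18 with the shared total.

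Rps29, a small zinc-binding protein of the small subunit (chromosome 12, 69157722 to 69159186), was the gene called toward C57. It had 4 Spretus reads against 25 from C57 in library 1, a share of 13.8% (exact 95% interval 3.89 to 31.7%), and 0 against 12 in library 2. The log2 ratio was -3.03 (SE 0.59, adjusted p = 0.00566 by edgeR), and the depth is low, with 41 reads in all although its FPKM was 396 and 60.6. Rps19, the gene most often mutated in human Diamond-Blackfan anaemia, had the lowest share among the 60, at 31.5% ± 8.22 (SD, n = 2), and did not pass (adjusted p = 0.102 by edgeR). Rpl6 at 34.5% ± 5.42 and Rps15a at 38.4% ± 0.683 did not pass either, with adjusted p of 0.0785 and 0.0568 by edgeR. With the library block these 3 were called toward C57, with adjusted p of 0.00288, 9.43e-04 and 3.37e-05 by edgeR.

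The library block called 19 further autosomal genes, Rps19, Rpl6 and Rps15a among them, 13 toward Spretus with mean shares of 54.8 to 60.6% and 6 toward C57 with 31.5 to 40.9%. Toward Spretus, Rps14, whose human counterpart is deleted in the 5q- syndrome, had 196 Spretus reads against 144 from C57 in library 1, and 80 against 46 in library 2 (60.6% ± 4.13, SD, n = 2). Rps27a, which is made as a fusion with ubiquitin, had 95 against 65 in library 1, and 44 against 29 in library 2 (59.8% ± 0.636). Both had more Spretus than C57 reads in both libraries. Toward C57, Rplp0 had 178 against 259 in library 1, and 53 against 76 in library 2 (40.9% ± 0.250). None of Rps14, Rps27a and Rplp0 passed without the block, with adjusted p of 0.0920, 0.297 and 0.238 by edgeR.

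The other stalk genes and several deeply read genes stood near balance. Rplp1 had 81 Spretus reads against 89 from C57 in library 1, and 26 against 28 in library 2. Rplp2 had too few reads for the test, with 20 against 17 in library 1, and 4 against 3 in library 2. Rpl3, which lies near the peptidyl transferase centre, had 184 against 195 in library 1, and 62 against 62 in library 2. Rps3, at the mRNA entry of the small subunit, had 220 against 207 in library 1, and 63 against 76 in library 2, so the direction differed between the libraries. These genes were chosen after their values were seen.

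The libraries did not always give the same share. Rpl9 had 57 Spretus reads against 53 from C57 in library 1, a share of 51.8% (exact 95% interval 42.1 to 61.4%). Library 2 had 19 against 4, a share of 82.6% (61.2 to 95.0%). It was called neither in the planned fit nor with the block. Across the 60 genes the shares of the libraries differed by a median of 2.52 percentage points, against 3.56 for the other genes.

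**Figure D3:**
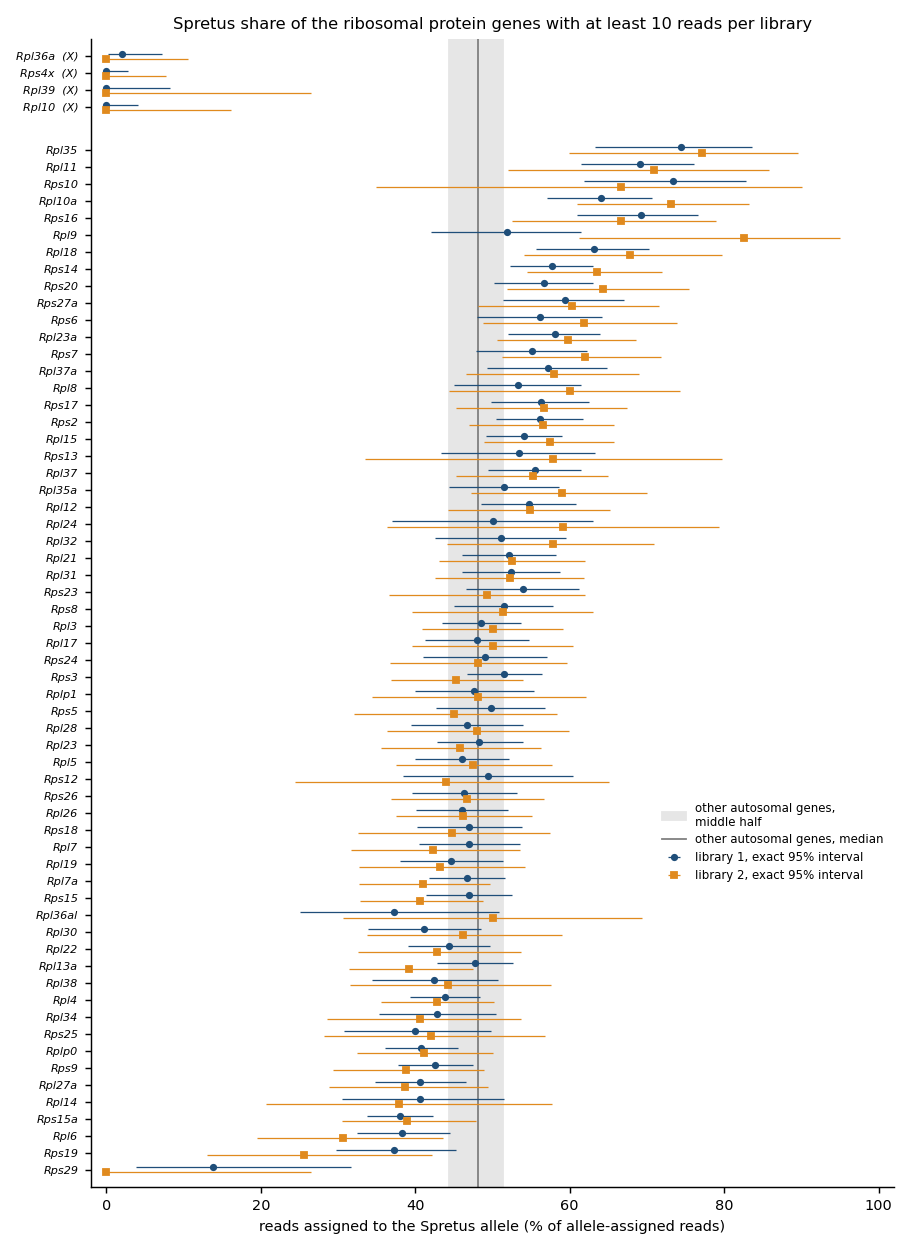
Share of allele-assigned reads from the Spretus allele (%) in library 1 (circles) and library 2 (squares) with exact 95% intervals, for 65 of the 67 ribosomal protein genes tested (the other 2 are not drawn), X-linked genes on top. The grey band is the interquartile range of the other autosomal genes (44.3 to 51.4%). The X-linked genes lie at or near 0, and autosomal genes run from Rpl35 at 75.8% to Rps29 at 6.90% on average.

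**Figure D4:**
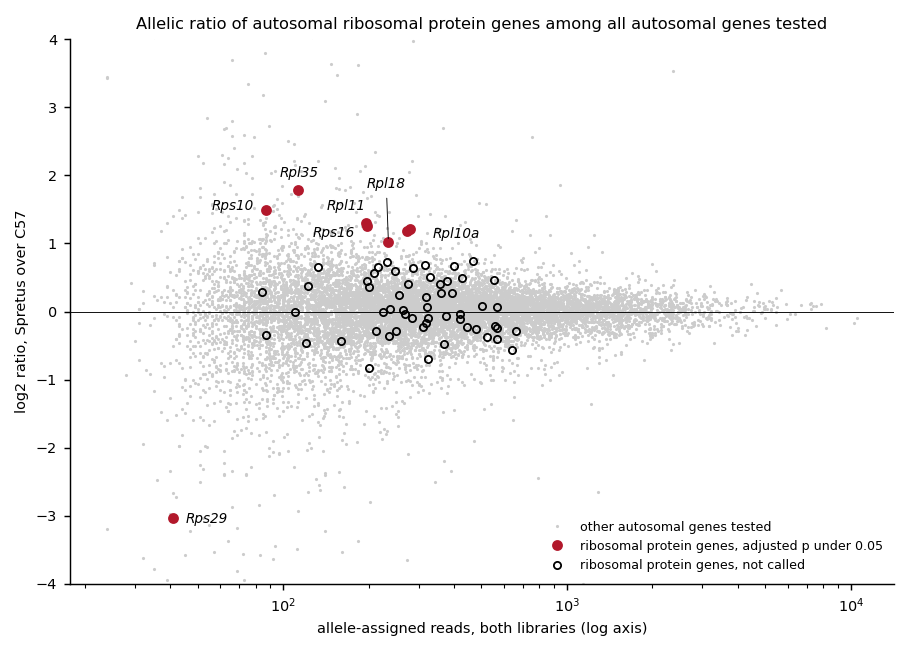
Log2 ratio of Spretus over C57 against allele-assigned reads of both libraries (log axis) for the 63 autosomal ribosomal protein genes and the other 11521 autosomal genes tested, of which 78 lie beyond the drawn range of 4 in either direction. Filled points, not all of them named, are the 8 genes past an adjusted p of 0.05 in edgeR's test, 7 above 0 and Rps29 below.

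Ribosomal protein genes have many processed pseudogenes, copies of their mRNAs set back into the genome. The tables list 245 with the name of 1 of these genes and the suffix ps, for 55 of the 80 genes, with 22 for Rpl31 and 20 for Rps12. Pseudogenes that carry other names were not counted. Their FPKM was 0 in both libraries for 149 of the 245, and 26 had a mean FPKM of at least 1. Of these 26, 16 had 0 allele-assigned reads. Rps6-ps4 stood highest, at 48.0 and 11.3 FPKM with 0 allele-assigned reads, beside 68.8 and 13.7 FPKM for Rps6, the target of the S6 kinases. Rps19-ps6 (38.0 and 5.68), Rps25-ps1 (26.0 and 5.37) and Rpl28-ps3 (22.1 and 4.62) also had none. These copies thus held FPKM but no allele-assigned reads. Their sequences were not compared with those of the genes. Where a gene and its pseudogene are near-identical, the FPKM of both is uncertain.

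In all, 217 allele-assigned reads stood under the pseudogenes, 83 Spretus and 134 C57, beside 20326 under the genes themselves. Among 46 genes with such pseudogenes and at least 20 reads in each library, 23 had pseudogene reads. When these reads were added, the share moved by over 2 percentage points in 3 of the 23. For genes without pseudogene reads the share could not move, so the comparison says nothing about them. The largest shift was that of Rpl10a. Its pseudogene Rpl10a-ps1 on chromosome 1 had 0 Spretus reads against 30 from C57 in library 1, and 0 against 15 in library 2, at 35.7 and 5.48 FPKM.

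Rpl10a alone had 132 Spretus reads against 74 from C57 in library 1, and 49 against 18 in library 2, a log2 ratio of 1.19 (SE 0.25). With the reads of its pseudogenes added, a comparison chosen after seeing the data, its share fell to 57.8% ± 2.70, against 68.6% ± 6.40 without them (SD, n = 2), and the call was lost (log2 ratio 0.57, SE 0.24, adjusted p = 0.228 by edgeR). Rpl18 moved the other way. Rpl18-ps2 on chromosome 6 had 15 Spretus reads against 1 from C57 in library 1, and 7 against 0 in library 2, and adding the pseudogene reads gave Rpl18 a share of 68.2% ± 4.56, against 65.5% ± 3.34 without them. The adjusted p was then 0.00864 by edgeR. Rpl18 also overlaps Sphk2, which had 94 Spretus reads against 77 from C57 in library 1, and 21 against 11 in library 2.

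**Figure D5:**
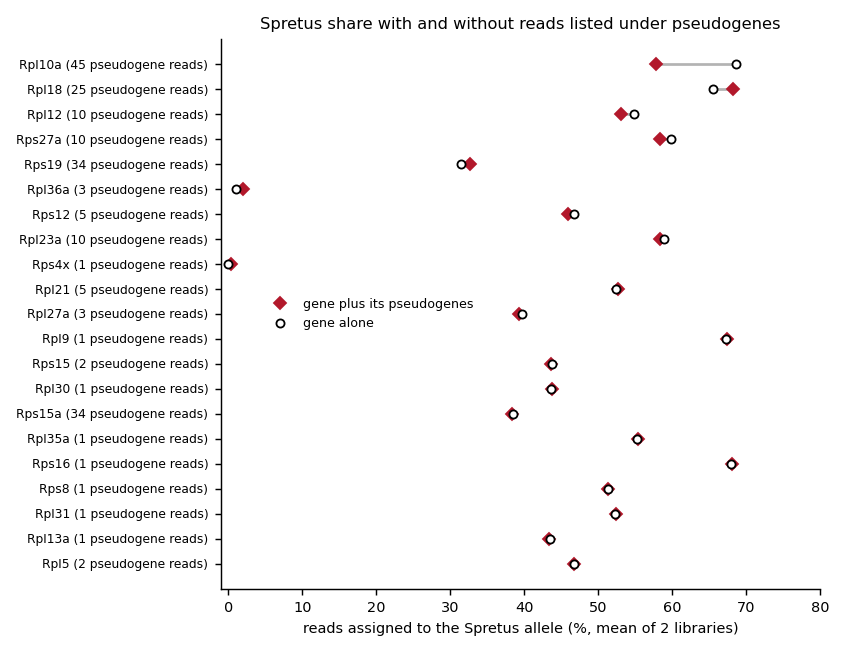
Spretus share (%, mean of 2 libraries) of 21 of the 23 ribosomal protein genes with at least 20 reads in each library whose named pseudogenes had allele-assigned reads, with those reads added (diamonds) and without them (circles). Rpl10a lies at 57.8% with and 68.6% without pseudogene reads, and Rpl18 at 68.2% with and 65.5% without.

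Fewer allele-assigned reads stood behind each unit of FPKM than for other genes. In library 1 the 77 genes had a median of 1.23 reads per unit of FPKM, against 19.4 over all genes with a mean FPKM of at least 1. Rps27 had 19 reads at 464 FPKM, Rps21 11 at 235 and Rpl41 32 at 455, while Rplp0 had 437 at 60.6. FPKM is per length and reads are not, so short mRNAs hold fewer reads at the same FPKM. Transcript length, the number of bases that differ between the strains and reads that match several copies were not analysed here, and their part was not tested. Ribosomal protein genes are also known as hosts of small nucleolar RNAs, and 30 entries named Snora or Snord lay inside 21 of the 80 loci. Small nucleolar RNAs listed under other names were not counted. Another listed gene with reads overlapped 27 of the 80. The shares of all genes with such entries or overlaps were not taken, so these counts have no background.

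Allelic calls of genes close to the ribosome but outside the symbol rule are set here beside the same shares of all autosomal genes tested, 2.39% toward Spretus and 3.04% toward C57, or 11.1% and 11.3% with the library block. Of 7 tested genes of similar kind or name, among them Rpsa, Rps3a1, Gnb2l1, Rpl22l1, Rpl7l1 and Rps19bp1, 0 were called in edgeR's test, and with the library block 0 toward Spretus and 2 toward C57. Rps3a1, a small subunit gene, stood at 32.9% ± 1.35 (SD, n = 2; adjusted p = 0.0956 by edgeR) and Gnb2l1, the scaffold protein Rack1, at 49.8% ± 1.16. Of 28 tested ribosome assembly genes, 0 were called toward Spretus and 3 toward C57, namely the nucleolin gene Ncl (34.2% ± 0.978), the ATPase gene Nvl and the X-linked Dkc1, and with the block 4 and 7. Of 29 tested translation factors and related genes, the helicase gene Eif4a1 was called toward Spretus (73.8% ± 4.37, SD, n = 2) and the X-linked Eif1ax toward C57, and with the block 3 and 2. In the same test, 2 of 72 mitochondrial ribosomal protein genes were called toward Spretus and 1 toward C57, and with the block 3 and 7. Of 71 respiratory chain genes, 1 was called toward Spretus and 3 toward C57, the X-linked Cox7b among them, and with the block 6 and 5. The counts of these lists include X-linked genes, while the shares set beside them are of autosomal genes alone. Autosomal were 27 of the 28 ribosome assembly genes, 27 of the 29 translation genes and 70 of the 71 respiratory chain genes. Counts with the block were not split by chromosome. Whether these lists differ from the cytosolic ribosomal protein genes was not tested. The median FPKM in library 1 was 138 for the cytosolic and 16.7 for the mitochondrial ribosomal protein genes and 92.0 for the respiratory chain genes.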

How the data were processed

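The deposited RNA tables, per the file headers, give 2 raw read counts a gene, of the Spretus and the C57 allele, and an FPKM value that covers both alleles. The deposited methylation levels are fractions from 0 to 1 per region and allele. The list held 1613 regions, and 13 without levels were left out. The library kit marks strand and follows a depletion of ribosomal RNA, per the labels' protocols. The build mm10 and the tools bedtools 2.2.4, HTSeq 0.6.0, Cufflinks 2.1.1 and TopHat2 2.0.9 stand in the submitters' processing notes with no role given. Not given in the sources used here are the allele assignment, the annotation, the strand setting of the counting and the settings of the region caller.

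Of the identifiers, 49 stood at several loci with the same counts and were used once. Gene starts are given counted from 1. Counts were tested with edgeR 4.0.16 in R 4.3.3 (glmQLFit and glmQLFTest), with TMM scaling and allele as the only term, in genes with at least 10 reads in each library, with Benjamini-Hochberg adjustment across the tested genes (threshold 0.05). SE is the log2 ratio divided by the square root of F. The test was checked on simulated counts drawn without a shared effect of the library, so the check does not cover the pairing of alleles. It missed more 2-fold than 4-fold changes, so a gene that was not called may still differ. DESeq2 1.42.0 was an alternative. Both allele columns of a library were read from 1 RNA sample, so the library number pairs them by design, and their deviations from the allele means correlated at 0.599 over 7565 autosomal genes with at least 200 reads. Transcript length was not used, so reads were divided by FPKM alone.

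Named genes were the X-linked members, their copies, autosomal members past the threshold (up to 10), the 5 highest and lowest in FPKM, the 3 extreme library ratios, members with a methylation region within 2 kb, and the 5 highest pseudogenes. Others, such as Rps19, Rpl6, Rps15a, Rpl9 and Rpl5, were chosen after their values were seen. Some genes counted here are not reported by name. The members and lists were chosen with earlier results of these data known.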

Additional observations from a re-analysis of the deposited data

How the results depend on the processing

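The planned fit called 12 of the ribosomal protein genes toward an allele, 7 autosomal toward Spretus, 1 autosomal and 4 X-linked toward C57. The replicate block, with the library as a term, called 31, with 20 autosomal toward Spretus and 7 toward C57, the 12 among them. DESeq2 called 3 autosomal genes toward Spretus. A shared library total, which moved the median autosomal log2 ratio to -0.11 from 0.02, called 4 toward Spretus and 2 toward C57. Without a filter on low counts 3 were called toward C57. A minimum of 50 reads in each library left 4 calls, 4 toward Spretus and 0 toward C57, and removed Rpl35, Rps10, Rpl11, Rps29 and the X-linked genes from the test. Rps29, Rpl35 and the 4 X-linked genes kept their call in every alternative that tested them. Rps10, Rps16 and Rpl18 lost theirs with DESeq2 and with the shared total, Rpl11 with DESeq2 and Rpl10a with pseudogene reads added, the one alternative chosen after seeing the data. The cause was not tested. Without either library 1 column per allele is left, so no test without a replicate was possible.

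The median Spretus share of the autosomal genes, 48.8%, was 49.0% and 48.6% with minimums of 10 and 50 reads, 48.4% without genes that have a pseudogene above 1 FPKM, and 49.6% without replicate 1 or without replicate 2. The pooled X-linked share, 0.426%, was 0% to 0.559% without a replicate and 0% without Rpl36a. The library ratio of 6.36 was 0.771 in allele-assigned reads scaled to each library's total. The count of genes with a methylation region was 4 in each alternative, the median reads per unit of FPKM was 1.20 in genes of at least 10 FPKM, and the count of start tracts was 13 with 3 pyrimidines and 10 with 6.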
